A study of Rattus norvegicus with 14 samples.

Results

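The muscle-rich skin biopsies are 5 of the 14 skin samples of this study, chosen by their own array signals for 5 skeletal-muscle genes. The rule ranked the arrays by the mean of the gene-centred log2 signals of Acta1, Ckm, Tnnc2, Tnnt3 and Atp2a1, here called the marker mean, and took the 5 highest; the other 9 arrays are called muscle-poor. The samples came from male CD hairless rats, with 1 array per animal, and each RNA was drawn from 15 to 20 mg of biopsy. Of the animals, 6 had been exposed at 94 GHz for 3 h a day on 3 days a week over 5.5 months, and 8 were sham-exposed over the same period; their ages and the body site of the skin are not given in the sources used here. The muscle-rich class holds exposed animals 2, 5 and 6 and sham animals 5 and 7. The muscle-poor class holds exposed animals 1, 3 and 4 and sham animals 1, 2, 3, 4, 6 and 8. Animal numbers only name the arrays within a group. The labels say that cages held 2 rats each but not which rats these were, so every test counts animals as independent.

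Skeletal muscle contracts when calcium, released from the sarcoplasmic reticulum after an electrical signal on the membrane, binds the troponin complex on the actin filament and lets myosin heads pull on it. Fast and slow fibres carry different forms of myosin, troponin and calcium pump, and fast fibres draw more on glycogen while slow fibres draw more on oxygen. In rodents a thin sheet of skeletal muscle, the panniculus carnosus, lies beneath the skin; the sources used here do not say whether it was included in a biopsy.

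Signals are given as log2 values relative to the array's 75th percentile, so that 0 is the 75th percentile of that array and each unit is a doubling. The level of 1 probe is not comparable with that of another, and only differences between arrays are read. A probe counted as measured when it was well above its local background on at least 5 arrays. Because the classes were selected on measured values of the same arrays, the contrast between them is described here and not tested: a gene is called higher or lower when the class means differ by at least 2-fold and no muscle-rich array overlaps any muscle-poor array. Where a probe was not well above background on some muscle-poor arrays, the fold is an approximate lower bound, written as at least. For it, a dim signal below that array's lowest signal well above background was raised to it, and a dim signal above it was kept. Where nothing was raised, as for Cox6a2, Cox8b and Mylk2, the fold is that of the signals as read. Log2 differences and ranges are of the signals as read. In bulk tissue, fewer muscle fibres and less RNA per fibre cannot be told apart.

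The 5 markers moved together over the 14 biopsies. The marker mean was 5.28 in exposed animal 2, 3.97 in sham animal 5, 3.20 in sham animal 7, 1.80 in exposed animal 5 and 1.51 in exposed animal 6. The muscle-poor arrays followed from 0.017 in exposed animal 3 down to -3.03 in sham animal 8. The arrays just inside and just outside the division thus differed by 1.496, the widest gap between neighbours, within a whole range of 8.31, or 318-fold. Acta1, the actin of the skeletal-muscle thin filament, read 3.53, 1.91, 1.25, -0.06 and -0.56 in the muscle-rich arrays, in the order above, and -4.63 to -1.99 in the muscle-poor arrays. As class means (± SD, n = 5 and n = 9), Acta1 was 1.21 ± 1.63 against -3.67 ± 0.89, and Ckm, the muscle creatine kinase, was 1.74 ± 1.54 against -3.19 ± 1.37. Tnnc2, the calcium-binding subunit of fast troponin, was 3.02 ± 1.52 against -2.30 ± 1.34, a 40.0-fold difference. Tnnt3, the tropomyosin-binding subunit of fast troponin, differed 22.1-fold, and Atp2a1, the calcium pump of fast fibres, 30.5-fold. In the muscle-poor arrays 4 of the 5 markers were well above background on all 9, and Ckm on 8. These values set the division and support nothing further.

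**Figure D1:**
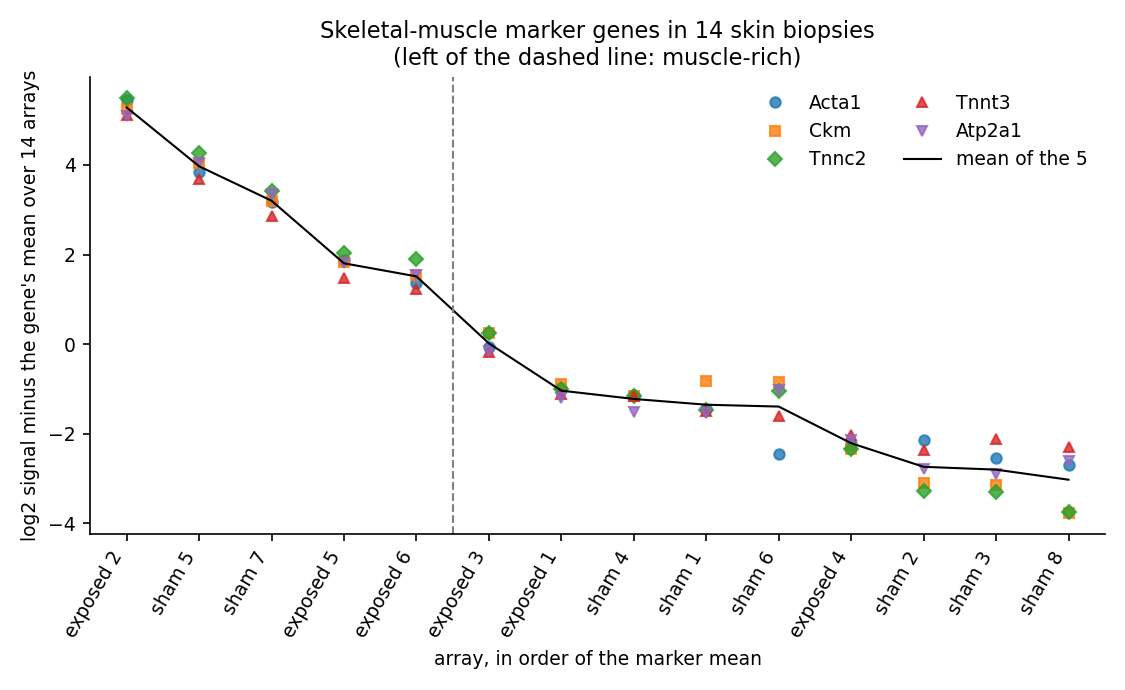
Each point is the log2 signal of 1 marker gene minus its mean over the 14 arrays, with arrays on the horizontal axis in order of the marker mean (line) and the division drawn as a dashed line. The muscle-rich arrays run from 5.28 to 1.51 and the muscle-poor arrays from 0.017 to -3.03, a graded series with its widest step, 1.496, at the division.

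The library facts that bear on this contrast were few. The 75th percentile of the signal was 1661 ± 189 (SD, n = 5) in muscle-rich and 1402 ± 341 (SD, n = 9) in muscle-poor arrays, with the lowest value, 799.5, in sham animal 6. Between 62.8% and 71.2% of probes were well above background on an array, and no probe was saturated. The arrays lay on 4 slides; slides 3 and 4 each held 2 muscle-rich arrays beside 4 and 2 muscle-poor ones, slide 2 held 1 of each, and slide 1 held 2 muscle-poor arrays. Skin was well represented in both classes: the epidermal keratins Krt14 and Krt1, the collagen gene Col1a1 and the fat hormone gene Adipoq were above background on all 14 arrays.

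Across the 18434 measured genes other than the markers, 57 (0.309%) were higher in the muscle-rich arrays and 0 (0%) were lower. Of the 57, 19 were above background on all 14 arrays and differed by 2.40- to 36.6-fold with a median of 6.92-fold. A further 24 were above background on some muscle-poor arrays and 14 on none. These 14 passed the filter on dim probes only through the muscle-rich arrays. Those of the 24 seen on fewer than 5 muscle-poor arrays, such as Myl1 and Cacna1s, also needed the muscle-rich arrays to pass. With signals not above background raised to the detection floor, all 57 still differed by at least 2-fold (median 7.88-fold), and 52 were free of overlap; Myl2, Myom2, Hjv and a pair of genes without symbol were not. By comparison, 97.7% of all genes differed by less than 1.5-fold and the median difference of all genes was -0.03. Without the condition on overlap, 89 genes were at least 2-fold higher and 42 at least 2-fold lower. Of the 57 genes, 43 carried a symbol, and 36 of those stood in the skeletal-muscle lists described below, which were drawn up with earlier results of these data known. The absence of overlap fixed the same sign for all 57 within slides 3 and 4 and within exposed and sham animals taken alone. Of the 57, 56 differed by at least 2-fold in exposed and in sham animals alike. All 57 read highest in exposed animal 2, and 49 followed the order of the marker mean through all 5 muscle-rich arrays.

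**Figure D2:**
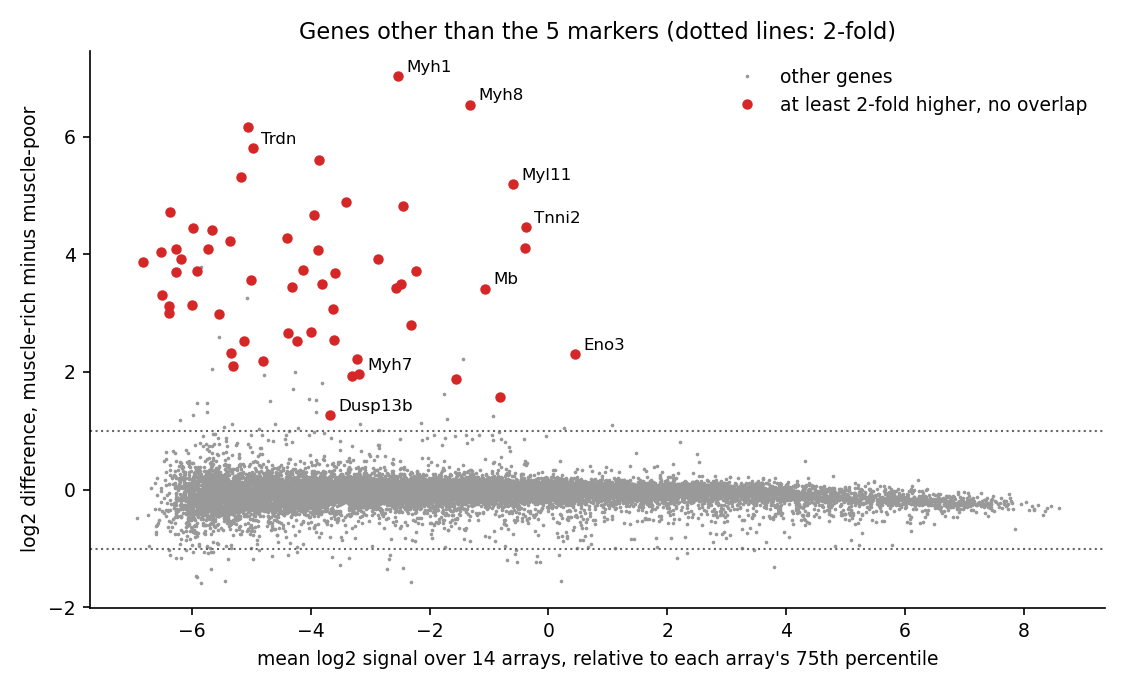
Each point is 1 of 18434 genes, with its mean log2 signal over 14 arrays on the horizontal axis and the log2 difference between muscle-rich and muscle-poor means on the vertical axis; dotted lines mark 2-fold. The 57 genes in red reach, in signals as read, from Dusp13b at 1.26 to Myh1 at 7.03, and no gene below the lower line is free of overlap between the classes.

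To show the regulatory sequence in front of genes that moved together, the bases before the transcription start are printed for a marker and for the higher genes that hold a binding motif of MEF2, a transcription factor of muscle genes. Promoters came from the RefSeq table of build GRCr8, 250 bases before to 50 after each gene's start, and 35 of the 43 higher genes with a symbol had one there (36 promoters, since Myl1 has 2). Only the 250 bases before the start are shown, 5′ to 3′ on the gene's strand. Acta1 lies at chr19:68784195-68784444 on the minus strand, Ampd1 at chr2:193287082-193287331 on the plus strand, and Cox6a2 at chr1:192219717-192219966 on the minus strand. Klhl41 lies at chr3:74841868-74842117 on the plus strand and Myl1 at chr9:75897800-75898049 on the minus strand. The other Myl1 promoter holds no MEF2 motif and is not shown. Capitals mark the MEF2 motif, and in Acta1 the CArG box, the site of serum response factor, followed by the TATA box.
Acta1: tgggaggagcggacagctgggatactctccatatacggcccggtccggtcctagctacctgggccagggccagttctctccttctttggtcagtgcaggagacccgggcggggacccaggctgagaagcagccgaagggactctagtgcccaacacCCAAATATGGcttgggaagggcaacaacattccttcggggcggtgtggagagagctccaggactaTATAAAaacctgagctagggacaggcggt
Ampd1: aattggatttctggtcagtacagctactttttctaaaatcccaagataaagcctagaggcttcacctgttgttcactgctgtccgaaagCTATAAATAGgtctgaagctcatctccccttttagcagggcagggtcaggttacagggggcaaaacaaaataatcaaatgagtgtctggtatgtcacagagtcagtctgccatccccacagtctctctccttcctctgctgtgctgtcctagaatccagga
Cox6a2: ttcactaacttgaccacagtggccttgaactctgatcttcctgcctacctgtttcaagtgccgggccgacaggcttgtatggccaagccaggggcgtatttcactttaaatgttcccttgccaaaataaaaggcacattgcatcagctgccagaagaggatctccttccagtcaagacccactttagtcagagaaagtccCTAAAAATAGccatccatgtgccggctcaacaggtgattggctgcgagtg
Klhl41: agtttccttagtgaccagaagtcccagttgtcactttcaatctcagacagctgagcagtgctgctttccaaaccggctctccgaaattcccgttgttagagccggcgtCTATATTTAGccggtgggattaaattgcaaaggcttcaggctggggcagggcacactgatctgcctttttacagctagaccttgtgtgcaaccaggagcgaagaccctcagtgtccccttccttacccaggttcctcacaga
Myl1: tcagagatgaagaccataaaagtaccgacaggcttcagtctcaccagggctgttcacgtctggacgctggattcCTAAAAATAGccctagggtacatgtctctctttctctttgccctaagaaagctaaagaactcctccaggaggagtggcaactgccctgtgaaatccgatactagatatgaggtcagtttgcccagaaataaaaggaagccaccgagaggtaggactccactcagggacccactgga

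The MEF2 motif stood 161 bases before the start in Ampd1, 50 in Cox6a2, 142 in Klhl41 and 176 in Myl1, and the CArG box 94 before the start in Acta1. In Ampd1 the letters of the TATA box fall inside the MEF2 motif. The MEF2 motif was in 4 of the 36 promoters of higher genes (11.1%) and in 189 of 33469 promoters of the same length in all (0.565%). The CArG box was in 0 of 36, against 1.64% of all promoters, which says only that these letters are not in this window. The E-box CANNTG, the motif of the MyoD family, was in 33 of 36 (91.7%), against 72.1% of all, and the TATA box, searched as TATAAA on the gene's strand only, in 8 of 36 (22.2%), against 8.80%. The E-box, MEF2 and CArG motifs read the same on both strands. These counts are a description of letters in a window and not of sites in use.

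The fast contractile proteins stood furthest apart, in a division set in part by the fast-fibre genes Tnnc2, Tnnt3 and Atp2a1. Of 10 measured genes of that list beyond the markers, 6 were higher and 0 lower, and the median difference was 3.95, beside -0.03 for all genes. Myl11, the regulatory light chain of fast myosin, read 5.10, 3.35, 2.76, 1.35 and 1.12 in exposed 2, sham 5, sham 7, exposed 5 and exposed 6, the order kept for every gene below; the muscle-poor arrays ran from -4.40 to -0.26 with a median of -2.12. Every muscle-rich array lay above every muscle-poor one, and the mean difference was 5.19 ± 0.89 (SE), or 36.6-fold. Tnni2, the inhibitory subunit of fast troponin, read 4.65, 3.25, 2.48, 1.15 and 0.92 against -3.16 to -0.39 (median -1.72), a 22.1-fold difference. Myl1, the essential light chain whose promoter with the MEF2 motif is printed above, read 2.25, 0.24, -0.63, -1.49 and -1.68 against -8.16 to -3.40 (median -5.87). It was above background on 4 of the 9 muscle-poor arrays and was at least 36.3-fold higher. Actn3, the Z-disc actinin of fast fibres, was 17.3-fold higher and Mylk2, the skeletal myosin light chain kinase, 5.77-fold in signals as read (above background on 6 muscle-poor arrays). Both were free of overlap. Mybph, Tpm1 and Tpm2 differed by 0.13, 0.06 and -0.11 on the log2 scale, all with overlap.

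The myosin heavy chains, the motor subunits that define fibre types, did not all follow the marker mean. Their genes are near-identical neighbours, the probe sequences were not among the files used here, and the extent to which 1 probe reads another chain was not tested, so each value below is that of a probe. The Myh1 probe (fast type) read 4.05, 2.68, 1.92, 0.94 and 0.35 in the muscle-rich arrays and -8.77 to -1.70 (median -3.69) in the muscle-poor arrays, and was above background on 6 of those 9. It was at least 80.2-fold higher. The Myh8 probe, named for the perinatal chain, read 4.94, 3.43, 2.99, 1.81 and 1.27 against -8.16 to -0.42 (median -2.55), in the same order as Myh1. It too was above background on 6 of the 9 and was at least 75.9-fold higher, so the values of these probes do not rank one above the other.

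The Myh2 and Myh4 probes, for the other fast chains of the rat, broke that order. Myh2 read -0.79, -2.89, -3.53 and -3.36 in exposed 2, sham 5, sham 7 and exposed 5, but -6.50, not well above background, in exposed animal 6. The muscle-poor exposed animal 3 read -5.01 and was above background, so the classes overlapped although their means differed by 3.78. A second Myh2 probe was above background on the same 4 muscle-rich arrays and on no muscle-poor array. Myh4 was above background on 4 muscle-rich and 0 muscle-poor arrays and so missed the filter. It read -1.31, -2.84, -1.40, -6.95 and -4.45, where -6.95, in exposed animal 5, was not well above background. Taken over the class, Myh4 was at least 6.53-fold higher in the muscle-rich arrays. Exposed animals 5 and 6, with neighbouring marker means of 1.80 and 1.51, thus differed in which of these probes was detected: Myh2 in exposed animal 5 and Myh4 in exposed animal 6. The embryonic chain Myh3 differed by 0.39 with overlap and was above background on 3 muscle-rich and 3 muscle-poor arrays.

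**Figure D3:**
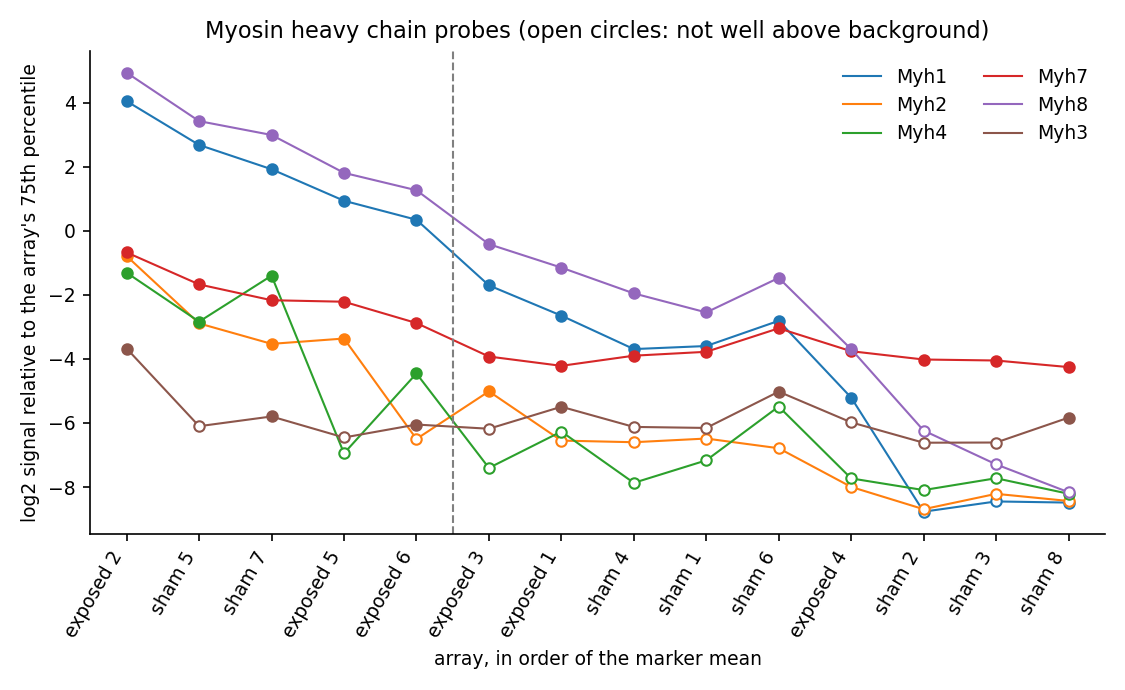
Each line is the probe of 1 myosin heavy chain gene, with the log2 signal relative to the array's 75th percentile against the arrays in order of the marker mean; open circles are not well above background and the dashed line is the division. Myh1 and Myh8 fall in step from 4.05 and 4.94, while Myh2 drops to -6.50 in exposed animal 6 and Myh4 to -6.95 in exposed animal 5.

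Slow-fibre genes were higher too, by smaller differences, in a division that used no marker particular to slow fibres. Of 13 measured genes 6 were higher and 0 lower, with a median difference of 1.88. Myh7, the slow myosin heavy chain, read -0.67, -1.67, -2.17, -2.21 and -2.88 against -4.25 to -3.04 (median -3.92), a difference of 1.96 ± 0.39 (SE), or 3.89-fold. The classes came closest at exposed animal 6 (-2.88) and sham animal 6 (-3.04). Mybpc1, a thick-filament binding protein, read 1.36, 0.00, -0.57, -0.85 and -1.66 against -2.55 to -1.85, or 3.67-fold. Tnnc1, the slow and cardiac calcium-binding troponin, was 3.81-fold higher and Tnni1, the slow inhibitory troponin, at least 5.23-fold, the last above background on 1 muscle-poor array. Csrp3, a Z-disc LIM protein, and Myl2, the slow regulatory light chain, were above background on no muscle-poor array and were at least 5.42-fold and at least 3.26-fold higher. Myl3 (difference 3.26) and Tnnt1 (1.63) overlapped between the classes, and so did Myh6 (0.93).

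A list score, the mean over a list of each gene's log2 signal minus its mean over the 14 arrays, sets the fibre types side by side. The fast score was 3.69, 2.57, 2.06, 1.29 and 0.93 in the muscle-rich arrays and -1.17 ± 0.83 (SD, n = 9) in the muscle-poor ones. The slow score was 2.18, 1.59, 0.81, 0.63 and 0.19, and -0.60 ± 0.22 (SD, n = 9). The fast score differed by 3.28 between the classes and the slow score by 1.68. Over the 9 muscle-poor arrays, which share the array scaling, Pearson's r with the marker mean was 0.97 for the fast and 0.62 for the slow score. It was 0.85 for general oxidative phosphorylation and the citrate cycle, whose scores overlapped between the classes, and -0.84 for dermal matrix. An r of the slow score's size was thus not particular to muscle fibre genes. These values are a description. The markers Tnnc2, Tnnt3 and Atp2a1 are fast-fibre genes and no marker is particular to slow fibres. The fast and slow scores are thus not compared on equal terms.

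**Figure D4:**
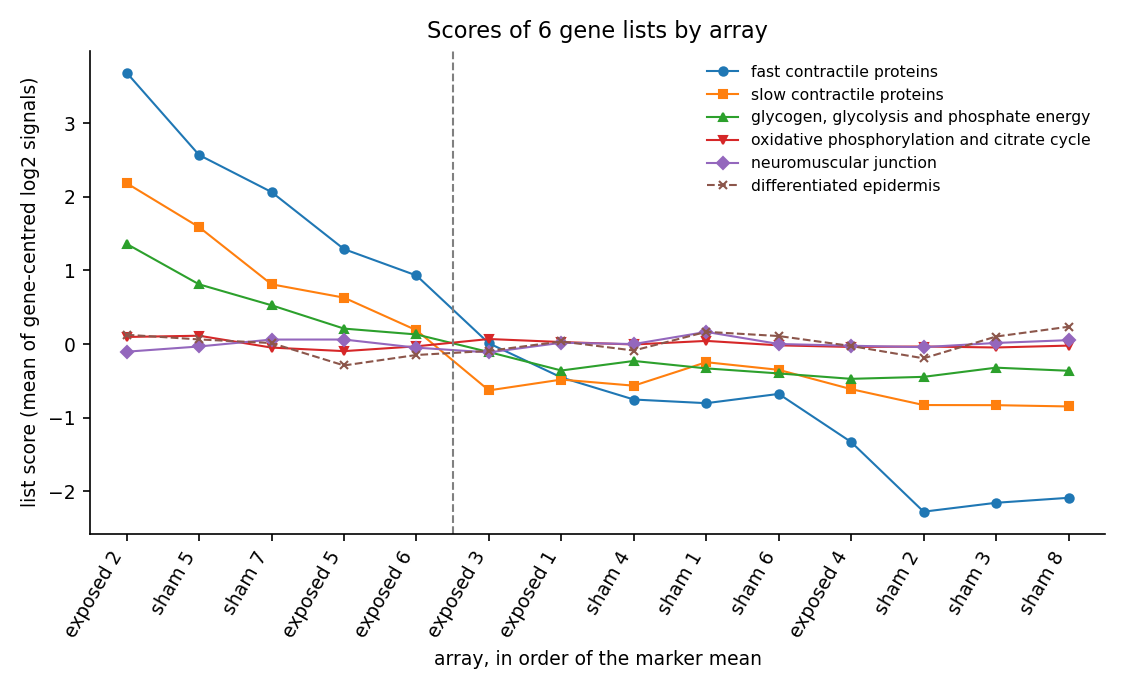
Scores of 6 gene lists (mean of gene-centred log2 signals, vertical axis) by array in order of the marker mean, with the division as a dashed line. The fast score falls from 3.69 to 0.93 over the muscle-rich arrays and the slow score from 2.18 to 0.19, while the score of oxidative phosphorylation and the citrate cycle stays between -0.10 and 0.11 in all 14 arrays.

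Genes that build the sarcomere's frame followed the contractile genes in part. Of 17 measured genes 7 were higher and 0 lower (median difference 1.51), and 9 more had a probe that missed the filter, of which 6 were above background on muscle-rich arrays only. Nrap, an actin-binding protein of growing myofibrils, read 0.97, -0.30, -0.96, -1.82 and -2.65 against -6.78 to -4.58 (median -5.60); it was above background on 5 muscle-poor arrays and at least 23.8-fold higher. Myot, the Z-disc protein myotilin, read -1.17, -2.20, -3.55, -4.73 and -5.01 and was above background on no muscle-poor array, so it was at least 6.82-fold higher. Klhl41, whose product stabilises sarcomere proteins, was at least 5.55-fold higher, and Myom2, a cross-linker of the M-band, at least 3.14-fold. Myoz1, a Z-disc protein, was 15.1-fold higher, Tmod4, which caps the thin filament, at least 13.1-fold (above background on 8 muscle-poor arrays) and Klhl31 at least 4.14-fold (on 5). Des, the intermediate filament desmin, differed by 0.09 with overlap, and Myorg, listed here but not a frame protein, by -0.46. Trim54 and Myom1 (2.59 and 1.51) overlapped between the classes.

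In the apparatus that couples the membrane signal to calcium release, 5 of 17 measured genes were higher and 0 lower (median difference 0.57). Trdn, the sarcoplasmic reticulum protein triadin, read 0.89, -0.98, -1.12, -2.32 and -2.68 against -8.46 to -5.50 (median -7.05). It was above background on all 5 muscle-rich and no muscle-poor array and was at least 28.4-fold higher. That was the largest bound among the 14 higher genes above background on no muscle-poor array. Cacna1s, the pore of the voltage sensor, read 0.27, -0.85, -1.60, -2.91 and -3.15 against -7.02 to -4.61 (median -5.98); it was above background on 3 muscle-poor arrays and at least 18.1-fold higher. Casq1, the calcium store calsequestrin of fast fibres, read 1.99, 0.15, -0.13, -1.43 and -1.70 against -4.96 to -2.69 (median -3.85), or 11.3-fold. Sypl2, a protein of the triad membrane, was at least 9.56-fold higher (above background on 3 muscle-poor arrays) and Stac3, which couples the voltage sensor to the release channel, at least 3.97-fold (on 5). Pvalb, the calcium buffer of fast fibres, read 3.39, 2.32, 1.81, 0.46 and 0.89 against 0.02 to 1.59 (median 0.64), so exposed animals 5 and 6 lay among the muscle-poor arrays. Atp2a2, the pump of slow fibres and of many other cells, differed by 0.01, and Casq2 by -0.10. Ryr1, the release channel, had no probe under that name.

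Among 22 genes of glycogen breakdown, glycolysis and the phosphate energy store 5 were higher and 0 lower, and the median difference was 0.18. Each of the 5 is the muscle form of its enzyme or a gene of muscle nucleotide balance. Pgam2, the muscle phosphoglycerate mutase, read 1.91, 0.46, -0.29, -1.63 and -1.78 against -7.12 to -3.61 (median -4.77); it was above background on 7 muscle-poor arrays and at least 28.2-fold higher. Eno3, the muscle enolase, read 3.76, 2.45, 1.72, 0.90 and 0.81 against -0.65 to -0.05 (median -0.44), a difference of 2.30 ± 0.55 (SE), with little spread among the muscle-poor arrays. Ampd1, the muscle AMP deaminase with the MEF2 motif shown above, read 1.23, 0.53, -0.56, -1.79 and -2.01 against -3.76 to -2.83 (median -3.29), or 6.92-fold. Pygm, the muscle glycogen phosphorylase, was 5.85-fold higher, and Ckmt2, the creatine kinase of muscle mitochondria, at least 9.46-fold. Ppp1r3c, Pgm1 and Ak1 were free of overlap at 0.72, 0.57 and 0.43, below the 2-fold mark. Enzymes that many cell types use differed less: Aldoa by 0.20, Gapdh by 0.10, Ldha by 0.07 and Tpi1 by -0.03, all with overlap.

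Oxygen store and fat oxidation gave 3 higher genes of 21, 0 lower, and a median of 0.04. Mb, the oxygen-binding protein myoglobin, read 3.16, 1.62, 0.88, 0.33 and -0.36 against -3.06 to -1.35 (median -2.41), or 10.7-fold. Cox6a2 and Cox8b, subunits of cytochrome oxidase in the form used by heart and skeletal muscle, were above background on 8 muscle-poor arrays each. They were 28.1-fold and 11.3-fold higher in signals as read. Cox6a2 read 2.69, 1.58, 0.53, -0.63 and -0.95 against -6.19 to -2.14 (median -4.18), and its promoter is printed above. The 38 measured genes of general oxidative phosphorylation and the citrate cycle lay between -0.17 and 0.17, with 0 higher, 0 lower and a median of 0.01. Art1, an ADP-ribosyltransferase of the muscle surface, differed by 1.81 with overlap. Ucp3, a mitochondrial carrier of muscle, differed by -0.16.

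Few genes of the fibre membrane, the motor nerve contact, the muscle stem cell or muscle growth were higher, beside 0.309% of all genes. With so few measured genes, a count of 0 says little about a list. Of genes with a probe, the filter removed 3 of 18 for the membrane, 4 of 13 for the junction and 9 of 20 regulators. It also removed 5 of 9 satellite cell genes and 6 of 14 growth genes. Of those removed, 3 regulators, 1 membrane gene and 1 growth gene were above background on muscle-rich arrays only. In the dystrophin complex and membrane list 1 of 15 was higher (median 0.08), Hjv, a co-receptor for bone morphogenetic proteins that skeletal muscle carries, at least 4.64-fold. Cav3, the muscle caveolin, and Popdc3 differed by 1.71 and 1.26 with overlap, while Dmd, dystrophin itself, differed by 0.06 and Sync by -0.63. The neuromuscular junction gave 0 of 9 (median -0.02), with the acetylcholine receptor subunit genes Chrna1 at -0.19 and Chrne at 0.14 and Dok7 at -0.19. The transcription and splicing regulators gave 1 of 11 (median 0.11), Rbfox1, a splicing factor, at least 4.28-fold; Rbm24, Rbm20 and Myog differed by 0.65, 0.46 and 0.42 with overlap. Satellite cell genes gave 0 of 4 (Met 0.25, Myf5 -0.02 and Pax3 0.01), and growth, atrophy and secreted factors gave 0 of 8 with a median of -0.06. Several defining genes were dim: Myod1 was above background on 2 muscle-rich and 0 muscle-poor arrays, Sln and Myf6 on 1 muscle-rich array each, and Pax7, Musk, Mstn, Ppargc1a and Trim63 on none of the 14.

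In the list of developing and regenerating muscle 2 of 9 genes were higher (median 0.21), Myh8, given above, and H19. H19, an imprinted non-coding RNA, read 0.85, -0.47, -1.23, -2.48 and -2.93 against -6.60 to -3.85 (median -5.45); it was above background on 5 muscle-poor arrays and at least 16.7-fold higher. Its imprinted neighbour Igf2 differed by -0.06, and Actc1, the cardiac actin also made in developing muscle, by -0.16. Of 7 small heat shock chaperones and partners 0 reached 2-fold without overlap (median 0.19). Hspb6, a chaperone abundant in muscle, read -0.32, -1.24, -1.60, -1.99 and -2.21 against -2.47 to -2.23, which was free of overlap at 1.84-fold; Hspb3 differed by 1.31 with overlap, Cryab by 0.19 and Hspb2 by -0.22. Myl6, the single measured gene of the last muscle list and not particular to skeletal muscle, differed by -0.13.

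**Figure D5:**
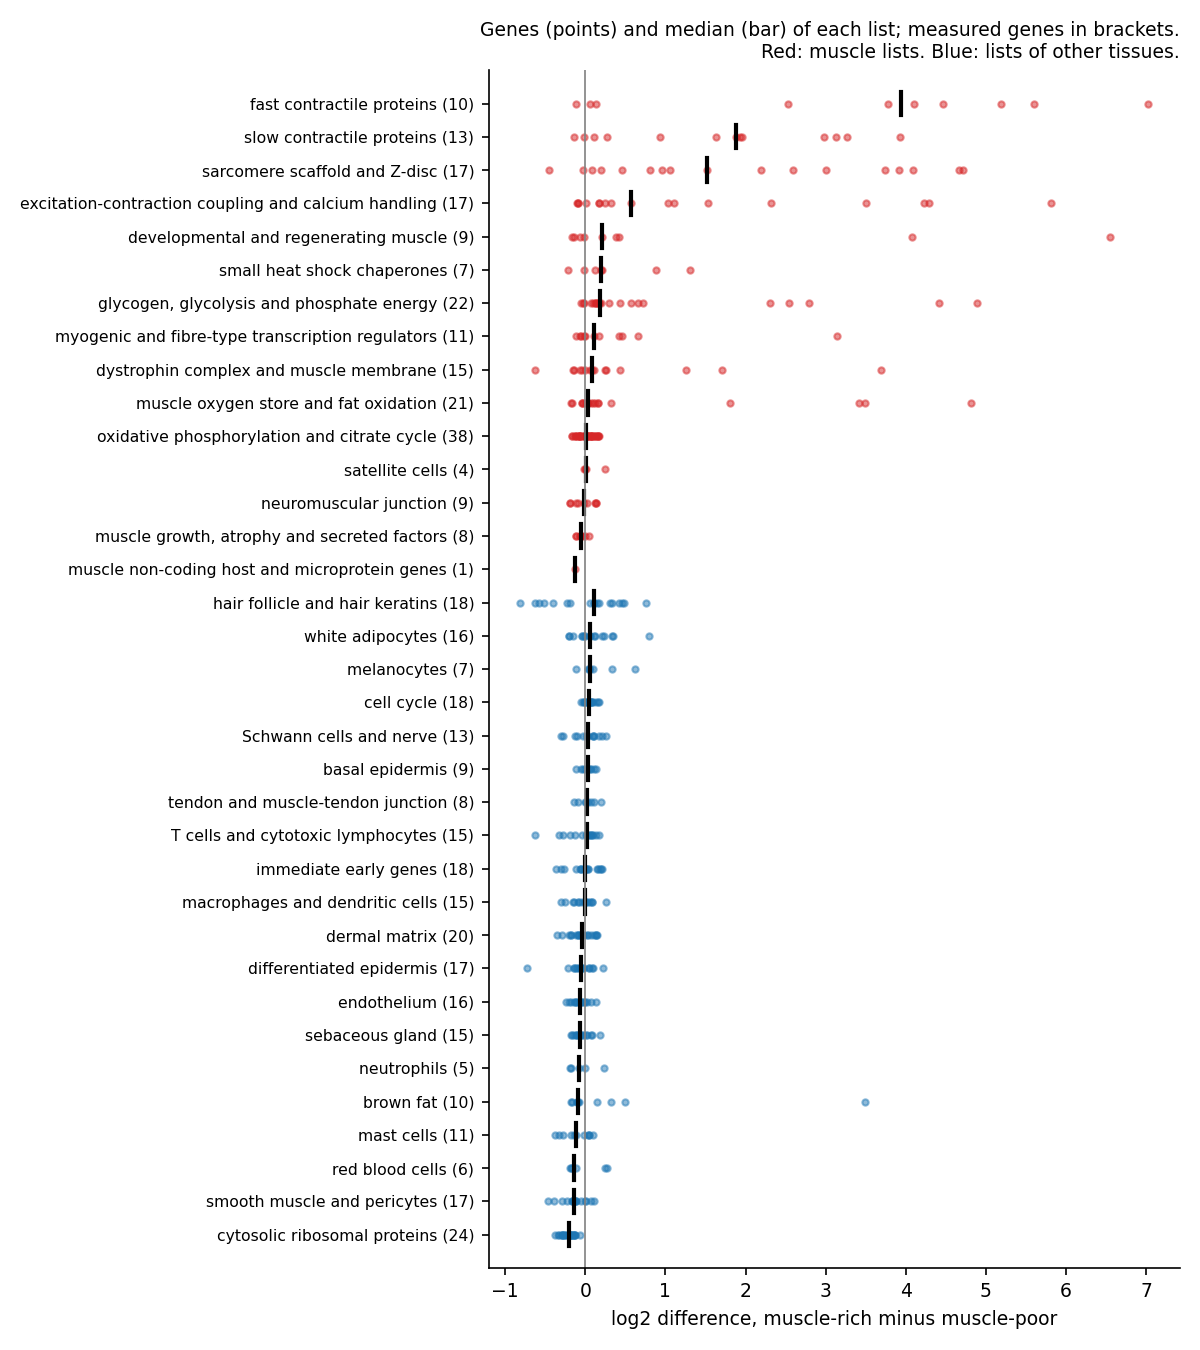
Each point is 1 gene of a list, placed by its log2 difference between muscle-rich and muscle-poor means; black bars are list medians, red lists are of skeletal muscle and blue lists of other tissues, and measured genes are in brackets. Red medians run from 3.95 for fast contractile proteins to -0.06 for muscle growth, atrophy and secreted factors. Below them lies -0.13 for a list with 1 measured gene, Myl6, which is not particular to skeletal muscle. The 20 blue medians lie between -0.20 and 0.11.

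Of the 43 higher genes with a symbol, 7 stood in no muscle list. Rpl3l, a ribosomal protein that replaces Rpl3 in striated muscle, read -0.93, -2.30, -3.24, -4.41 and -4.59 and was above background on no muscle-poor array, at least 8.03-fold higher; Rpl3 itself differed by -0.12. Tceal7 and Hhatl were likewise detected in the muscle-rich class alone and were at least 7.88-fold and at least 4.49-fold higher. Apobec2, a cytidine deaminase family member of striated muscle, was 10.8-fold higher, Fitm1, a lipid droplet protein, 6.40-fold, and Ankrd23, a protein of the titin filament, at least 4.86-fold (above background on 6 muscle-poor arrays). Dusp13b, a phosphatase gene, was 2.40-fold higher, the smallest of the 57. A further 14 of the 57 genes had no symbol in the gene table. Outside the muscle lists the genes most like the markers, by Pearson's r with the marker mean over all 14 arrays, were Rpl3l and Apobec2 (0.97 each), Hhatl and Fitm1 (0.96 each), Tceal7 (0.95), Ankrd23 (0.89), Rtn2 (0.86), Padi2 and Srpk3 (0.83 each) and Abra (0.82); Padi2 and Abra were above background on 1 and 2 muscle-poor arrays, and the arrays share their scaling and the markers set their order.

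Detection gave the contrast in another form. In all, 15 probes were above background on every muscle-rich and no muscle-poor array. The filter of 5 arrays required this of a kept probe seen in the muscle-rich class alone. The count for every muscle-poor and no muscle-rich array was 0. The filter did not require every muscle-poor array, so the counts are not on equal terms. A gene without a symbol was above background on 6 muscle-poor and 0 muscle-rich arrays. It differed by -1.17 with overlap. Of the 57 higher genes 14 were above background on no muscle-poor array, with lower bounds from 3.14- to 28.4-fold (median 5.03-fold), and 19 were above background on all 14 arrays. All 57 were above background on each muscle-rich array, which the filter of 5 arrays fixed for those 14. In the muscle-poor arrays the number was 38 in exposed animal 3, exposed animal 1 and sham animal 1, 31 in sham animals 6 and 2, 30 in sham animals 4 and 8, 28 in sham animal 3 and 27 in exposed animal 4.

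The division was drawn through a gradient. The gap between the lowest muscle-rich and the highest muscle-poor array had a median of 1.05 over the 57 genes (0.025 to 2.82), against class SDs with medians of 1.41 in the muscle-rich and 0.626 in the muscle-poor arrays; for all genes these SDs were 0.183 and 0.256. Exposed animal 3, just outside the division, was the highest muscle-poor array for 25 of the 57. Of the 19 higher genes above background on all 9 muscle-poor arrays, 13 (68.4%) had a Pearson's r with the marker mean above 0.5 within these arrays (median 0.713, range -0.708 to 0.962), beside 19.5% of the 16182 genes detected there (median 0.099). This is a description over 9 arrays that share their scaling.

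Where a gene had several kept probes, the brightest stood for it, and 3 of the 23 muscle-list genes with several had probes that differed by more than 1 log2 unit. For Jsrp1, a calcium-release protein, the brightest probe differed by 0.24 and the other by 3.09 (-2.21 ± 1.47, SD, n = 5, against -5.30 ± 0.61, SD, n = 9, without overlap). For Tpm1, a tropomyosin gene with many isoforms, the values were 0.06 and 1.08, the second without overlap. For the pyruvate kinase gene Pkm they were 0.17 and 1.49, with overlap. Which transcript each probe reads is not given in the files used here.

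Other tissues of the biopsy showed no difference of the size seen for muscle. In 20 lists of other cell types and processes, 1 gene was higher, Cox8b, which the brown fat list shares with muscle, and 0 were lower; the scores of all 20 overlapped between the classes. List medians ran from -0.20 (ribosomal proteins, 24 genes) to 0.11 (hair follicle, 18 genes), and 8 of the 15 muscle lists had a median above every one of them. Smooth muscle and pericytes had a median of -0.14, with Acta2, the smooth-muscle actin, at -0.23 and Myh11, its myosin, at -0.17. Tendon had a median of 0.02 with Tnmd at 0.19, endothelium -0.07 with Pecam1 at -0.24, and nerve and Schwann cells 0.04. Krt14 differed by -0.06, Krt1 by -0.12, Col1a1 by -0.18 and Adipoq by 0.11, all with overlap; with quantile normalization the first 3 were 0.16, 0.13 and 0.06. Single genes of these lists reached somewhat further, also with overlap: the hair keratins Krt33b at -0.81 and Krt72 at 0.76, Car3, an enzyme of fat and muscle, at 0.79, Krt2 at -0.73, Gzmb at -0.63 and Tyr at 0.62. Scaling to the ribosomal protein genes moved the median of all genes to 0.20 and turned small negative medians positive, such as that of differentiated epidermis from -0.05 to 0.18. Among genes with a symbol, Rpgrip1l alone read lower in every muscle-rich than in every muscle-poor array, by -0.44. It was above background on only 2 muscle-rich and 7 muscle-poor arrays. A gene without a symbol was also lower without overlap, by -0.99, just short of 2-fold. This gene was above background on 1 muscle-rich and 8 muscle-poor arrays.

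Exposure is a label that the division did not use, and it was tested against the muscle signal. The marker mean had a mean of 0.89 with an SD of 2.63 over the 6 exposed animals and of -0.67 with an SD of 2.73 over the 8 sham animals, a difference of 1.57 that was smaller than the spread within either group (two-sided exact permutation test over 3003 divisions, p = 0.298). It was 0.687 without exposed animal 2 and 2.23 without sham animal 5 (p between 0.115 and 0.624 over the 14 arrays left out in turn). With slide as a block it was 0.565; within slide 3 (3 exposed, 3 sham) it was -0.11 and within slide 4 (1 exposed, 3 sham) 1.92, while slides 1 and 2 each held 1 group. Of the exposed animals 3 of 6 (50%) were muscle-rich, and of the sham animals 2 of 8 (25%) (Fisher's exact test, two-sided, p = 0.580). A p of this size in 14 animals does not show that the groups held the same amount of muscle.

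With the muscle class as a block, limma called 0 of 18434 genes between exposed and sham (0%; Benjamini-Hochberg adjusted p under 0.05), with 861 at an unadjusted p under 0.05 and a smallest adjusted p of 0.978. The unadjusted count was 564 without sham animal 7 and 1894 without sham animal 6. The genes with a symbol and the smallest p were Hist1h2an (0.61 on the log2 scale, exposed minus sham) and Ice2 (0.35) on the higher side and Syce1 (-0.95) and Ilvbl (-0.29) on the lower, none past the threshold. Within the muscle-poor arrays, 3 exposed against 6 sham, limma called 0 genes (0%), with 532 unadjusted, or 2152 without sham animal 6; the first genes were Plac8 (0.80), Gnat1 (0.50), Syce1 (-1.20) and Lpcat4 (-0.38).

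Within the muscle-rich arrays, 3 exposed against 2 sham, limma called 2 genes (0.0108%), both with an adjusted p of 0.0462, and 704 at an unadjusted p under 0.05. Neither has a symbol, and they are named after their values were seen. The probe A_64_P084871 read -6.68 in sham animal 5 and -6.77 in sham animal 7, not well above background, and -4.91 to -3.15 in the other 12 arrays, sham and exposed; it was at least 5.92-fold higher in the exposed muscle-rich arrays. The probe of ENSRNOT00000037445 read -8.07 and -8.56 in these sham animals, also not well above background, and -6.62 to -5.13 elsewhere, which gave a bound of 1.37-fold. Both calls thus rest on the same 2 arrays being the lowest of all 14. With quantile normalization limma also called 2 genes, with a smallest adjusted p of 0.0119. Limma called 0 genes after normexp background correction (smallest adjusted p 0.215) and with slide as a further block (0.194), 21 without sham animal 4, 10 without sham animal 5, 7 without sham animal 7, 1 without sham animal 1, and 0 without any other array. Without sham animal 5 or 7 the sham side is 1 array, assumed to vary like the other groups. The first genes with a symbol, Tma7 (2.12), Ap4e1 (1.25), Lrrc10b (-5.92 ± 1.45, SE) and Tcf15 (-1.02), did not pass.

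The difference of the exposure effect between the muscle classes was tested as an interaction in the same limma model. It called 0 genes (0%), with 457 at an unadjusted p under 0.05 and a smallest adjusted p of 0.675. The count was 3 without sham animal 7, 2 without sham animal 4, 1 without sham animal 5 and 0 without any other array; without sham animal 5 or 7 the muscle-rich sham cell is again 1 array, with its spread taken from the other cells. The first genes were Igflr1 (-0.85) and Il22ra2 (-1.12) on the negative side and Ash1l (0.67) and Pnisr (0.50) on the positive, none past the threshold.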

How the data were processed

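Skin of 14 rats was read on single-colour Agilent arrays, 1 per animal. The authors' deposited scanner files hold linear spot intensity values, background-subtracted, made with Agilent Feature Extraction 10.7.3.1 per the file headers. The log2 values in the authors' deposited table cover 15168 probes and are centred per probe; its column medians lie between -0.0086 and 0.0119, its columns correlate at 0.99997 to 0.999995 with quantile-normalized signals centred the same way, and no source used here names its normalization. It served as an alternative.

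Control spots (4259 of 62976) and outlier spots were left out. The log2 processed signal minus the array's 75th percentile was averaged over spots of a probe. A probe was kept when well above background on at least 5 arrays, and the brightest kept probe stood for a gene, which gave 18439 genes; 18 kept probes with a missing value were dropped. Probes were named by accession through the RefSeq table of GRCr8 (17998 of 30367, 59.3%). The design refers to another build, so coordinates are given for promoters only. A class mean's bound used, per array, the higher of the dim probe's signal and the lowest signal well above background.

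The muscle classes come from the stated rule and are described by fold and overlap without a test. Exposure was tested with limma 3.58.1 in R 4.3.3 (lmFit, eBayes, Benjamini-Hochberg over all genes; class as a block, or 4 cells of class by exposure), checked on simulated data, with exact permutation and with Fisher's exact test in scipy 1.17.1. The members and the gene lists were chosen with earlier results of these data known. Named genes were the 3 largest differences of each list, the 20 largest positive and up to 12 negative ones without overlap, a set listed by name, the 2 smallest p in each direction of each exposure test and the 10 most like the markers; other list members were named with their values in view, and 1 gene listed by name is not reported here. Alternatives were background correction, scaling, filter, fold, slide, exposure and leaving out each array; array number limits the precision.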

Additional observations from a re-analysis of the deposited data

Results flagged for a closer look

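Within each muscle class, sets of values (list scores and named genes) were examined for an array far from the rest by Dixon's 95% limit. Of 192 sets, 11 had one, a share near the 1 in 20 that chance gives. In sham animal 6, which also had the lowest 75th percentile of signal (799.5), 5 of the 11 fell.

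Among the muscle-poor arrays, sham animal 6 stood apart with an endothelium score of -0.768 (others -0.169 to 0.304), a red blood cell score of 0.915 (others -0.559 to 0.138), a ribosomal protein score of 0.893 (others -0.282 to 0.282) and a cell cycle score of -0.399 (others -0.067 to 0.193). The slow myosin gene Myh7 read -3.04 there (others -4.25 to -3.76). Exposed animal 3, the muscle-poor array nearest the division, stood apart with a dermal matrix score of -0.712 (others -0.150 to 0.275), a macrophage and dendritic cell score of -0.722 (others -0.124 to 0.454) and a melanocyte score of -0.910 (others -0.178 to 0.371). Abra, a muscle actin-binding gene, read -4.47 in exposed animal 1 (others -7.27 to -5.98).

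Among the muscle-rich arrays, exposed animal 2, the highest in the marker mean, had a sebaceous gland score of 0.211 (others -0.129 to -0.047) and a signal of -3.68 for the embryonic myosin gene Myh3 (others -6.45 to -5.80). The part of these arrays' other differences in the muscle contrast was not tested.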

How the results depend on the processing

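The count of 57 higher genes was 30 with normexp background correction, 19 when probes had to be above background on all 14 arrays, and 11 in the authors' deposited table, which holds 11 of the 57. By fold alone it was 89. Also by fold alone it was 97 under a slide block, 132 on slide 3, 214 on slide 4 and 100 with exposure as a term. The count was 91 within sham animals, and 57 to 67 on leaving out each array, all 57 remaining each time. Leaving out an array cannot create overlap for a gene that had none, so only the 2-fold condition could have failed there. The other 14 settings gave 43 to 79, among them 52 with dim values at the detection floor, chosen after seeing the data. The count of 0 lower genes was 3 with no filter, 1 at 1.5-fold, 2 without the arrays beside the division, 14 within exposed and 106 within sham animals; by fold alone it was 42, and 38 under a slide block, 175 on slide 3, 249 on slide 4 and 71 with exposure as a term. It was 0 to 4 on leaving out each array. The cause of these changes was not tested, beyond fewer probes or arrays compared. The 8 muscle lists with a median above every other list were 5 with slide as a block and 5 to 9 on leaving out each array. Of 735 list medians over 21 settings, 16 moved by more than the spread, most with ribosomal protein scaling, which moved the median of all genes from -0.03 to 0.20; of 480 values of fixed genes 2 moved by more than the spread, Krt14 and Krt1 with quantile normalization. Small differences turned sign within the spread, among them Myh3 (-0.10) and Des (-0.10) without exposed animal 2 and Adipoq (-0.05) without sham animal 6. Exposure calls within muscle-rich arrays were 2 with quantile normalization, 0 with normexp and 0 with all 14 arrays above background. They were 1 with no filter and 0 with slide as a further block. On leaving out an array so that no cell was reduced to 1 array, they were 0 to 21, and the interaction gave 0 to 2. The marker mean's exposure difference was 1.57 with quantile and median scaling, 1.30 with normexp and 0.687 to 2.23 on leaving out each array. No paired analysis was possible because the labels give no replicate numbers.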
